A study of Mus musculus with 10 samples.

Results

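The comparison described here sets the livers of male mice heterozygous for the S400D mutation of HtrA2/Omi (S400D/WT) against those of wild-type males (WT/WT). It uses 6 of the 10 liver RNA-seq libraries of the study, 3 heterozygous and 3 wild-type, chosen by their genotype labels alone. All 6 were males of the C57BL6/N strain, killed at 2 months of age. The study also holds 3 homozygous S400D males, which shared the model fit and are quoted beside a few genes, and 1 homozygous female, which did not enter the fit. The labels name no agent, how the allele was made is not described in them, and they give no litter, collection time or source of the wild-type animals. Whether the libraries of a group came from separate litters or extractions is not given either, and every p-value here therefore reflects the spread among these libraries, which may be partly technical.

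HtrA2, also called Omi, is a serine protease of the mitochondrial intermembrane space, encoded by the nuclear gene Htra2. It takes part in the quality control of mitochondrial proteins. When the outer membrane is breached it is released to the cytosol, where it binds inhibitor of apoptosis proteins (IAPs) such as XIAP and cleaves them. The S400D allele replaces a serine with aspartate, an acidic residue commonly used to imitate phosphorylation. In the heterozygote 1 normal copy remains, so the comparison asks what liver RNA looks like with the mutant allele beside a normal one.

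Gene values are expected read counts summed over the transcripts of a gene and are given as CPM, counts relative to a library size that was scaled with the trimmed mean of M-values (TMM). The 6 libraries held 16240441 to 17264289 expected counts and 14474 to 14887 genes with at least 1 count. The labelled tissue fitted its defining markers, since all 10 hepatocyte markers were measured, and Alb, the serum albumin gene, stood at 50337, 49498 and 73897 CPM in heterozygous livers and 73695, 79458 and 69558 CPM in wild-type livers. The Y-linked gene Ddx3y lay between 46.9 and 52.8 CPM in all 6 libraries, which carry the label male. Another Y-linked gene, Eif2s3y, varied more, at 53.1, 38.9 and 41.3 CPM in heterozygous livers and 24.2, 49 and 52.2 CPM in wild-type livers. Htra2 itself, on chromosome 6 from base 83051266 to 83054571 (GRCm38.p6), had 15.1, 16.7 and 15.7 CPM in heterozygous livers and 17.2, 12.2 and 12.5 CPM in wild-type livers, with groups that overlapped. The log2 difference of Htra2, heterozygous minus wild type, was 0.18 (SE 0.14, adjusted p = 0.972 in edgeR's quasi-likelihood test). A point mutation does not have to alter the RNA level, so this value does not check the genotype.

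The 6 libraries did not part by genotype. On the first principal component of the 6, which held 42.7% of the variance, the heterozygous livers lay at −12.6, 20.8 and 26 and the wild-type livers at 25.3, −29.3 and −30.2. Wild-type animal 1 thus lay beside heterozygous animals 2 and 3, and heterozygous animal 1 lay on the side of wild-type animals 2 and 3. The closest pair of all was heterozygous animal 3 and wild-type animal 1, with a Spearman correlation of 0.9923 across genes. Their counts still differed by more than sampling noise, with a chi-square per gene of 16.4, so no library was counted as a repeat of another. The results below are therefore given animal by animal, and with each animal left out where that matters.

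**Figure D1:**
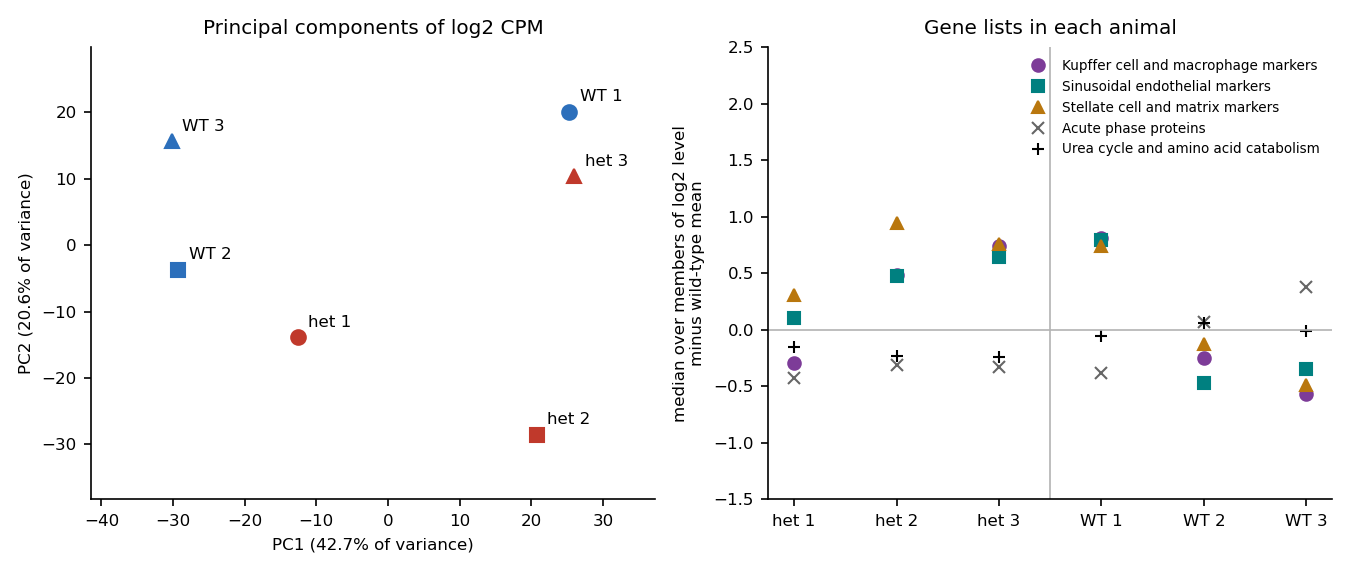
Left, the first and second principal components of the 6 libraries, 1 point per animal, with the percentage of variance on each axis. Right, the median log2 ratio to the wild-type mean of 5 gene lists in each animal. Wild-type animal 1 lies with heterozygous animals 2 and 3 on the first component, and the liver macrophage, sinusoidal endothelial and stellate lists are high in the same 3 animals.

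No gene passed an adjusted p of 0.05 (edgeR's quasi-likelihood test, Benjamini-Hochberg adjustment over 12427 genes), and the lowest adjusted p was 0.938. Before adjustment, 521 genes (4.19% of those tested) had p under 0.05, of which 208 (1.67%) were higher and 313 (2.52%) lower in heterozygous livers. Chance alone would give 621 at that threshold. Limma-voom likewise called 0 genes and gave 492 at an unadjusted p under 0.05. DESeq2 called 7: Bud13, Orm3, Ppl, Cish, Zpr1 and Entpd4 as lower and Mpp7 as higher. The higher and lower shares depended on scaling, since with library size alone 388 of the 531 genes at p under 0.05 were higher (73.1%, against 39.9% in the TMM fit) and the median log2 difference of all genes was 0.09, against 0.01 in the TMM fit. Scaling also moved the gene lists used below, since with library size alone 11 of the 50 list medians had the other sign and on FPKM 12 did. Wild-type animal 1 weighed most, because without it the number at p under 0.05 was 1287, against 335 without wild-type animal 2 and 259 without wild-type animal 3. Since nothing was called, the gene values that follow describe these 6 livers, and no gene in them is said to have responded to the allele. The genes named first are those with the smallest p whose groups did not overlap, so the absence of overlap in them follows from the choice. Apoa5, Apoc3, Socs2, Igf1, Ghr, Mup7, Serpina1e, Cyp4a14, Per3, Orm1, Lcn2, Saa2, Sqle, Xiap, Diablo, Hspd1, Clpp and Ngfr fall outside the naming rule and were chosen after their values were seen. Over all genes, the 3 heterozygous values lay above the 3 wild-type ones in 4.57% and below them in 5.76%.

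The smallest p belonged to Bud13, which encodes a subunit of the pre-mRNA retention and splicing complex, described first in yeast. Bud13 had 5.74, 5.65 and 5.33 CPM in heterozygous livers and 11.2, 11.2 and 12.8 CPM in wild-type livers. The heterozygous values sat close together and well under the lowest wild-type one. The mean was 5.57 ± 0.214 CPM in heterozygous and 11.7 ± 0.923 CPM in wild-type livers (SD, n = 3 each), and the log2 difference was −1.07 (SE 0.16). The unadjusted p was 7.55e-05 and the adjusted p 0.938 by edgeR's quasi-likelihood test, against an adjusted p of 2.33e-04 by DESeq2. Leaving out each animal in turn kept the difference between −1.10 and −1.0. The homozygous males, at 4.72, 6.25 and 6.78 CPM, lay near the heterozygous ones.

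The gene upstream of Bud13 ranked close to it. Zpr1, which encodes a zinc finger protein that binds growth factor receptors and the translation factor eEF1A, ends 333 bases before Bud13 begins on chromosome 9, and both are read from the plus strand. Zpr1 had 46.3, 36.1 and 59.1 CPM in heterozygous livers and 88.1, 89.4 and 100 CPM in wild-type livers, again with no overlap. Its log2 difference was −0.97 (SE 0.20, adjusted p = 0.972 in edgeR's quasi-likelihood test and 0.0293 in DESeq2), and the homozygous males had 59.3, 46.3 and 73.7 CPM. The apolipoprotein genes beyond Zpr1 differed less or in the other direction. Apoa5, an activator of plasma triglyceride clearance, had 1196, 914 and 1195 CPM in heterozygous livers and 1211, 1467 and 1626 CPM in wild-type livers, lower by a narrow margin (log2 difference −0.38). Apoc3, an inhibitor of lipoprotein lipase, overlapped at 1261, 1280 and 1053 CPM in heterozygous livers and 1060, 1597 and 1528 CPM in wild-type livers. Apoa1, the main protein of high-density lipoprotein, ran the other way with 10240, 8845 and 8144 CPM in heterozygous livers and 7390, 7215 and 6226 CPM in wild-type livers (log2 difference 0.39, unadjusted p = 0.0441 in edgeR's quasi-likelihood test). The start regions of Zpr1 and Bud13 are shown because these neighbours differed together. The capitals mark CCGGAAG, the core of ETS-family sites, searched on both strands, which 8.45% of the 32851 RefSeq start windows of 280 bases (250 before to 30 after the start, GRCm38.p6) contain. Zpr1 has 1 match, from base −8 to base −2 relative to the start, and Bud13 has none. A match is only a string of letters in the window.
Zpr1, chr9:46272814-46273093, plus strand: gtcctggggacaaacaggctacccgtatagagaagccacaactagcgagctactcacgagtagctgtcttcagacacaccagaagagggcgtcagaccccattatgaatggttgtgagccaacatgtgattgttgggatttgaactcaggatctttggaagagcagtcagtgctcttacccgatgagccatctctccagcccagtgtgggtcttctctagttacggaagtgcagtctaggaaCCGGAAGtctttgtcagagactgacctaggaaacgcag
Bud13, chr9:46282762-46283041, plus strand: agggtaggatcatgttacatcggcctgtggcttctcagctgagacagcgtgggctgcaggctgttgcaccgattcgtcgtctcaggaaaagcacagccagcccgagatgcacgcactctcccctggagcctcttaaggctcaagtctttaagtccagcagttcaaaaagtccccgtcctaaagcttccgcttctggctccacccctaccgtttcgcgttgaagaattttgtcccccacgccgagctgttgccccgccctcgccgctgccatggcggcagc

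Entpd4, which encodes a nucleoside diphosphatase of the Golgi and lysosome membranes, was listed at 0 reads in all 3 heterozygous livers and at 54, 214 and 54 reads in wild-type livers, or 3.15, 13.7 and 3.3 CPM. With a floor of 3 reads per library (0.168 to 0.183 CPM), the heterozygous level was at least 17.2-fold lower than the lowest wild-type library. The homozygous males also stood at 0. Entpd4 has a near-identical copy, Entpd4b, so the division of reads between them is uncertain. Entpd4b had 32.3, 31.8 and 34.2 CPM in heterozygous livers and 33.7, 19.6 and 28.7 CPM in wild-type livers, lowest in the wild-type animal with most Entpd4 reads. The summed level of both copies was 32.8 ± 1.26 CPM in heterozygous and 34 ± 2.53 CPM in wild-type livers (SD, n = 3 each), so the difference lay within the spread once the copies were joined. Nnt, a nuclear gene for mitochondrial proton-pumping transhydrogenase whose loss marks the J substrain of C57BL/6, was present in all 6 livers at 116, 97.6 and 139 CPM in heterozygous and 157, 124 and 123 CPM in wild-type animals.

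Other genes with small p were lower in heterozygous livers. Ppl, the desmosomal plakin periplakin, had 10.9, 10.3 and 10.6 CPM in heterozygous livers and 18.2, 32.6 and 40.3 CPM in wild-type livers. Here the heterozygous values were nearly equal and the spread lay among the wild types; the log2 difference was −1.52 (SE 0.31, adjusted p = 0.972 in edgeR's quasi-likelihood test and 0.0094 in DESeq2). Card10, a scaffold that links receptors to NF-κB, had 17.2, 16.1 and 17.7 CPM in heterozygous livers and 22.8, 29 and 32.1 CPM in wild-type livers (log2 difference −0.72). Zfpm1, the GATA cofactor FOG1, had 36.9, 34.4 and 44 CPM in heterozygous livers and 59.5, 53.5 and 54.2 CPM in wild-type livers (log2 difference −0.54). Erf, an ETS-family repressor downstream of ERK, stood at 22.2, 21.2 and 21.4 CPM in heterozygous and 31.4, 30.5 and 43.4 CPM in wild-type livers. Bcl3, an atypical IκB protein that binds NF-κB p50 and p52, was at 23.6, 23.4 and 23.2 CPM in heterozygous livers, against 27.8, 38.6 and 38.9 CPM in wild-type livers. The homozygous males were lower still for Bcl3, at 17.1, 16.6 and 17.9 CPM. Znrf3, a ubiquitin ligase that removes Wnt receptors, had 11, 10.9 and 11.9 CPM in heterozygous livers and 15.2, 15.3 and 15.5 CPM in wild-type livers, a narrow but complete gap (log2 difference −0.45). Naa80, the enzyme that acetylates the start of actin, showed a gap of like size, with 39.8, 36.9 and 42 CPM in heterozygous livers and 54.8, 53.3 and 51.1 CPM in wild-type livers.

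On the higher side, Mpp7 had the smallest p of the named genes. Mpp7, a membrane-associated guanylate kinase scaffold of cell polarity complexes, had 6.22, 5.24 and 6 CPM in heterozygous livers and 2.8, 3.2 and 2.75 CPM in wild-type livers. All 3 heterozygous values lay over 5 CPM and the wild-type values near 3 CPM; the log2 difference was 1.00 (SE 0.17, adjusted p = 0.972 in edgeR's quasi-likelihood test and 0.0232 in DESeq2). The homozygous males, at 3.18, 3.56 and 3.36 CPM, were near the wild types, and their log2 difference from the heterozygous males was −0.79 (adjusted p = 0.105 in edgeR's quasi-likelihood test). Rbmx, an X-linked RNA-binding splicing factor, had the same order, with 13.5, 17.3 and 14 CPM in heterozygous livers and 10.5, 11.1 and 10.9 CPM in wild-type livers (log2 difference 0.46). The homozygous minus heterozygous difference of Rbmx was −0.63 on the log2 scale (adjusted p = 0.104 in edgeR's quasi-likelihood test). Mdn1, the AAA ATPase that removes assembly factors from the large ribosomal subunit, had 14.3, 13.1 and 15.2 CPM in heterozygous livers and 9.81, 10.2 and 9.23 CPM in wild-type livers. Thoc1, a subunit of the complex that couples transcription to mRNA export, had 20.6, 19.4 and 18.6 CPM in heterozygous livers and 15.9, 15 and 15 CPM in wild-type livers. Dnmt3b, a de novo DNA methyltransferase, had 2.69, 7.88 and 2.75 CPM in heterozygous livers and 0.993, 2.11 and 1.22 CPM in wild-type livers. Its log2 difference of 1.62 leaned on heterozygous animal 2 and was 0.92 without it.

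**Figure D2:**
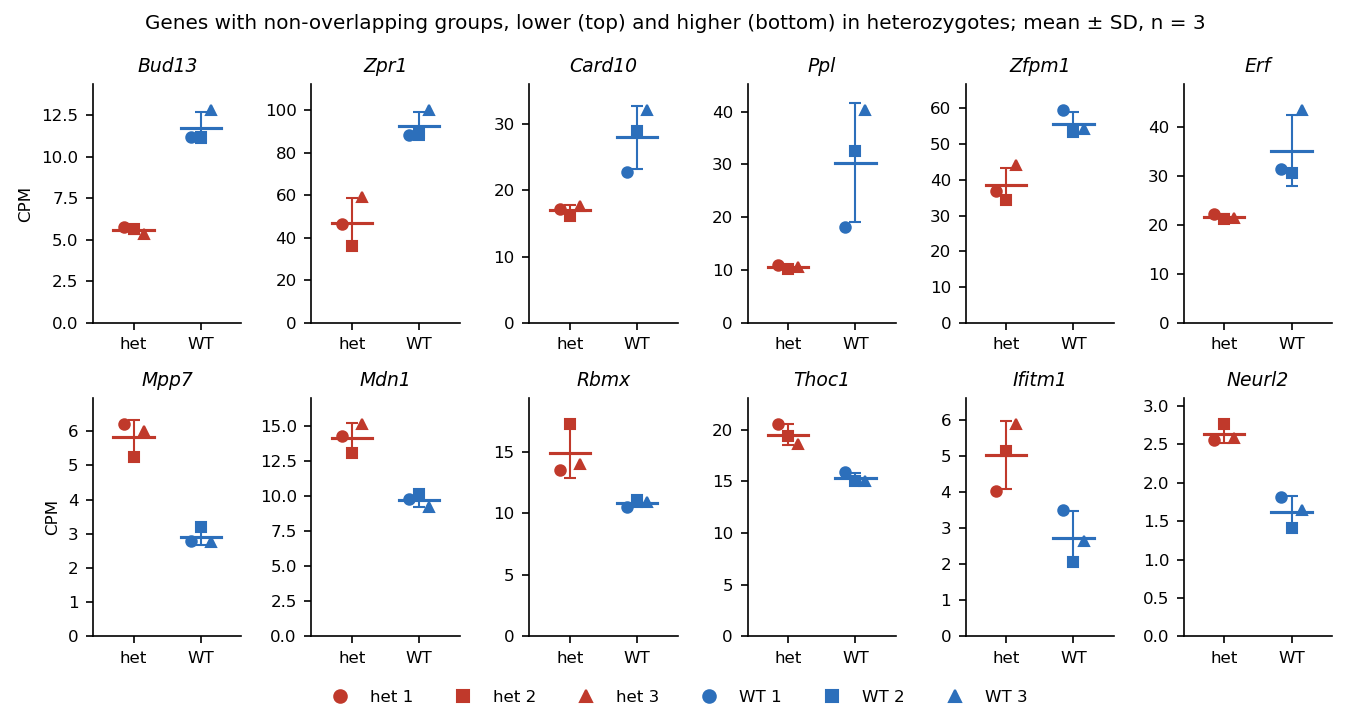
CPM in each animal for 12 genes with small p, heterozygous males on the left of each panel and wild-type males on the right; points are animals and bars the mean ± SD of 3. Bud13 lies between 5.33 and 5.74 CPM in heterozygous and between 11.2 and 12.8 CPM in wild-type livers, and Mpp7 shows the opposite order.

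Growth hormone reaches hepatocytes in pulses and acts through JAK2 and STAT5B, which drive the feedback inhibitors Cish, Socs2 and Socs3 and the growth factor gene Igf1. In mouse liver STAT5 also holds down the repressor gene Bcl6. Of the 17 tested genes of this axis 8 were higher and 9 lower, with a median log2 difference of −0.02 beside 0.01 for all genes. Within it, 1 gene was higher and 2 were lower at an unadjusted p under 0.05, against 1.67% and 2.52% of all genes.

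Cish, the inhibitor CIS, had 9.7, 1.88 and 3.42 CPM in heterozygous livers and 23.4, 35.6 and 13.4 CPM in wild-type livers. Each heterozygous value lay under each wild-type one, with means of 5 ± 4.14 CPM in heterozygous and 24.1 ± 11.1 CPM in wild-type livers (SD, n = 3 each). The log2 difference was −2.27 (SE 0.54, adjusted p = 0.972 in edgeR's quasi-likelihood test and 0.0253 in DESeq2) and ran from −3.18 to −1.88 with each animal left out. Bcl6 ran the other way, with 49.7, 122 and 72.8 CPM in heterozygous livers and 26.3, 29.3 and 40 CPM in wild-type livers. Its log2 difference of 1.36 (SE 0.33) was 0.94 without heterozygous animal 2. The homozygous males, at 35, 19.9 and 25.8 CPM, were close to the wild types for Bcl6, and differed from the heterozygous ones by −1.60 on the log2 scale (adjusted p = 0.105 in edgeR's quasi-likelihood test). Socs3 was lower, with 8.85, 6.47 and 5.5 CPM in heterozygous livers and 14, 9.72 and 11.9 CPM in wild-type livers. In the list 1 gene was higher and 3 were lower without overlap, beside 4.57% and 5.76% of all genes. Socs2, Igf1 and Ghr overlapped between the genotypes. Socs2, the inhibitor that lowers growth hormone receptor signalling, had 29.7, 5.18 and 10.1 CPM in heterozygous livers and 9.05, 11.8 and 11.5 CPM in wild-type livers, with overlap on both sides. Igf1, the main endocrine output, also overlapped, at 531, 377 and 469 CPM in heterozygous and 424, 566 and 474 CPM in wild-type livers. Ghr, the receptor, was at 579, 521 and 575 CPM in heterozygous and 545, 494 and 355 CPM in wild-type livers. Pim1, a kinase gene induced by STAT5 in blood cells, was not in this list. Pim1 had 34.3, 38.4 and 15.3 CPM in heterozygous livers and 15.1, 12.9 and 14.1 CPM in wild-type livers. It was higher without overlap (log2 difference 1.07, SE 0.30), though heterozygous animal 3 was almost level with the wild types.

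The start regions of Cish and Bcl6 are shown because these genes had the smallest p of the axis and opposite signs. Capitals mark TTCNNNGAA, the palindromic core of STAT sites, searched on both strands, where N is any base. A match occurs in 7.83% of all RefSeq start windows and 2 or more in 0.408%. Cish has 2 matches, from base 1 to 9 and from 12 to 20 after the start. The Bcl6 window of its downstream start has 3, beginning at bases −168, −122 and −88. The window of the other Bcl6 start holds 1, Socs3 holds 1 and both windows of Pim1 hold 0. A match is only a string of letters, and its part in these differences was not tested.
Cish, chr9:107296409-107296688, plus strand: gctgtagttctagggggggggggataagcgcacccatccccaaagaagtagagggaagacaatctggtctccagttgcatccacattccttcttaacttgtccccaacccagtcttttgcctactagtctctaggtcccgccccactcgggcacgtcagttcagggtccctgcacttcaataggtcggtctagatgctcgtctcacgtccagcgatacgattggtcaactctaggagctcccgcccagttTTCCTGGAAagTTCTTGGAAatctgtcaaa
Bcl6, chr16:23981254-23981533, minus strand: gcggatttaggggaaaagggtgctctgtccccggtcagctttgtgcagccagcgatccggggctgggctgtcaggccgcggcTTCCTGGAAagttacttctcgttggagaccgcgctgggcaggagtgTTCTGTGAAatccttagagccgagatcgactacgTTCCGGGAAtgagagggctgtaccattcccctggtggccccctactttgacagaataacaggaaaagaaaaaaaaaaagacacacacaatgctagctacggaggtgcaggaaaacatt

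Genes further down the growth hormone axis separated animals, not genotypes. The male-biased liver genes, which include the major urinary protein (Mup) family, summed to 59266, 49858 and 16961 CPM in heterozygous livers and 18782, 65365 and 23083 CPM in wild-type livers. Mup7, which encodes a pheromone carrier excreted in urine, had 17945, 17334 and 2431 CPM in heterozygous livers and 2156, 22542 and 3131 CPM in wild-type livers. Heterozygous animals 1 and 2 and wild-type animal 2 were high, and the other 3 low. The division of reads among the near-identical Mup genes is uncertain. Serpina1e, a serine protease inhibitor gene had the same 3 animals high, at 16292, 13850 and 2032 CPM in heterozygous livers and 2216, 13069 and 3634 CPM in wild-type livers. Cyp4a14, a fatty acid omega-hydroxylase gene, had 21.5, 106 and 492 CPM in heterozygous livers and 543, 16.2 and 407 CPM in wild-type livers, so the 3 animals high for Mup7 were the low ones. Over the list, 21 of 26 tested male-biased genes were higher and 5 lower, and the median log2 difference of 0.36 ranged from 0.05 without wild-type animal 3 to 0.74 without wild-type animal 2. Of 15 female-biased genes 3 were higher and 12 lower, with a median of −0.47 that was −0.25 without heterozygous animal 2, −0.26 without wild-type animal 1, −0.27 without wild-type animal 3 and −0.71 without heterozygous animal 3.

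The clock genes put heterozygous animals 1 and 2 at opposite ends. Arntl, which encodes the activator BMAL1, had 1.16, 31.4 and 2.58 CPM in heterozygous livers and 2.63, 2.43 and 4.22 CPM in wild-type livers. Dbp, a clock output gene in antiphase to Arntl, had 245, 6 and 105 CPM in heterozygous livers and 128, 147 and 156 CPM in wild-type livers. Heterozygous animal 2 was thus highest for Arntl and lowest for Dbp of all 6, and heterozygous animal 1 was lowest for Arntl and highest for Dbp. Per3, a clock repressor gene, was likewise lowest in heterozygous animal 2 and highest in heterozygous animal 1. It had 69.4, 3.53 and 22.4 CPM in heterozygous livers and 31.7, 38.4 and 41.6 CPM in wild-type livers. None of 24 clock genes was under an unadjusted p of 0.05 in edgeR's quasi-likelihood test. Without heterozygous animal 1, 3 higher and 4 lower were, beside 286 and 308 of all 12615 genes. Without heterozygous animal 3, 2 higher and 1 lower were, beside 243 and 235 of 12576. The median log2 difference of the list, −0.24, was −0.52 without heterozygous animal 1 and −0.12 without heterozygous animal 2. Bcl6 and Dnmt3b were highest and Cish lowest in heterozygous animal 2, and the part of the clock in them was not tested.

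**Figure D3:**
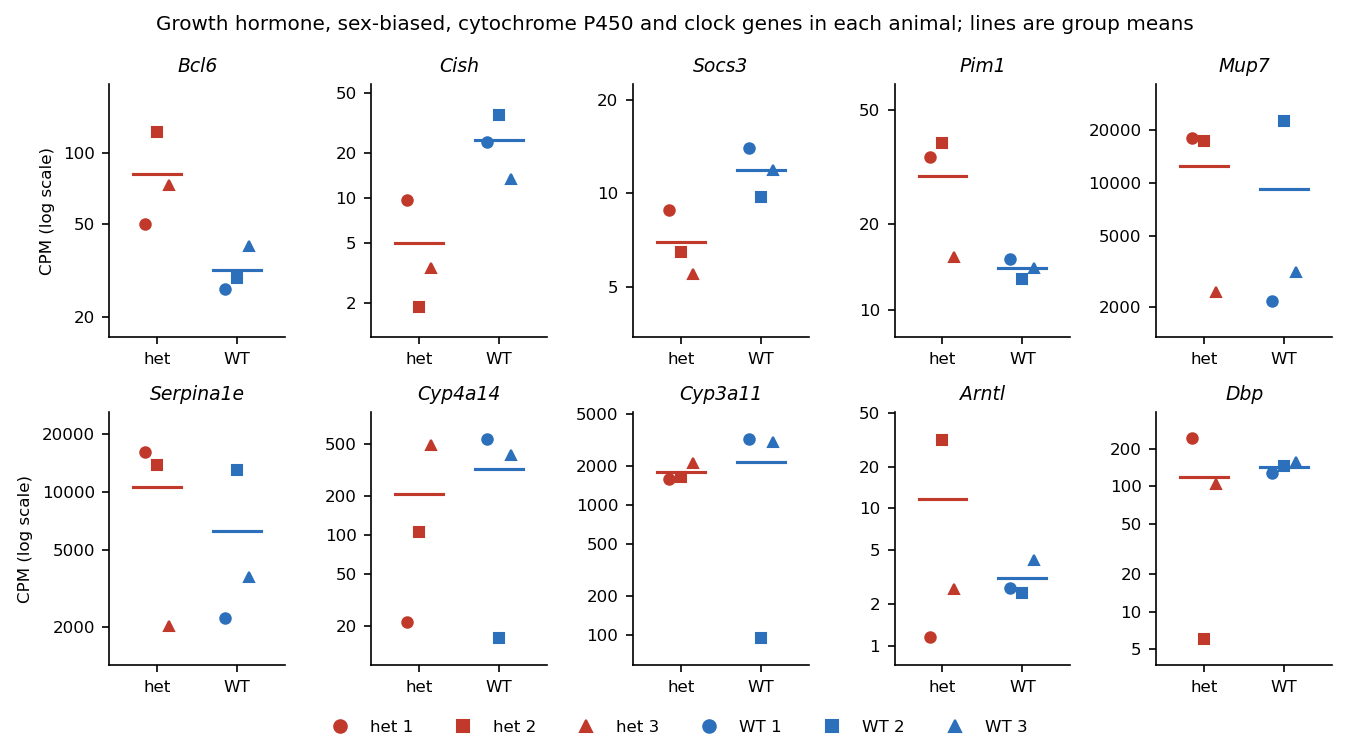
CPM on a log scale in each animal for 10 growth hormone, sex-biased, cytochrome P450 and clock genes, heterozygous males on the left and wild-type males on the right. Cyp3a11, a cytochrome P450 gene shown only here, falls outside the naming rule. Cish and Bcl6 do not overlap between genotypes; Mup7 and Serpina1e are high in heterozygous animals 1 and 2 and wild-type animal 2; Arntl is highest and Dbp lowest in heterozygous animal 2.

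Acute phase proteins are secreted by hepatocytes after inflammation or injury, under interleukin-6, STAT3 and C/EBP factors. Of 31 tested acute phase genes 28 were lower and 3 higher in heterozygous livers, beside 48.4% negative and 51.6% positive among all genes, and the median log2 difference was −0.40. At an unadjusted p under 0.05, 9 were lower and 0 higher in edgeR's quasi-likelihood test, beside 2.52% and 1.67% of all genes. The number lower was 11 in DESeq2, 10 without the filter on low counts and 8 in the 6 compared males alone. It was 5 with library size alone, 4 with the replicate block, 3 in limma-voom and 2 on FPKM. It was 14 without wild-type animal 1, 5 without wild-type animal 2 and 2 without wild-type animal 3, and 2, 4 and 6 without heterozygous animals 1, 2 and 3. The number lower over all genes moved too. It was 143 of 12427 with library size alone. Without wild-type animals 1, 2 and 3 it was 507 of 12575, 192 of 12600 and 137 of 12603. Without heterozygous animals 1, 2 and 3 it was 308 of 12615, 247 of 12569 and 235 of 12576. The median of the acute phase list ran from −0.57 without wild-type animal 1 to −0.18 without wild-type animal 3. In heterozygous animals 1, 2 and 3, 4, 6 and 5 of the 31 genes lay over the mean of the 6 livers. In wild-type animals 2 and 3, 25 and 26 did, but in wild-type animal 1 only 2, so this animal sat with the heterozygous ones.

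The orosomucoid genes, which encode α1-acid glycoproteins, lie side by side on chromosome 4, and Orm3 and Orm2 had the smallest p of the list. Orm3 had 0.793, 0.412 and 0.393 CPM in heterozygous livers and 2.39, 8.06 and 11.7 CPM in wild-type livers. Orm3 and C3 were the 2 acute phase genes with no overlap, and the Orm3 log2 difference was −3.78 (SE 0.88, adjusted p = 0.972 in edgeR's quasi-likelihood test and 0.00269 in DESeq2). Orm2 had 5.07, 9.47 and 8.53 CPM in heterozygous livers and 9.17, 40.3 and 62.4 CPM in wild-type livers, where wild-type animal 1 fell among the heterozygous ones (log2 difference −2.27). Per transcript length, Orm1 dominated, with 1400 ± 162 TPM in heterozygous and 2174 ± 1061 TPM in wild-type livers (SD, n = 3 each), while Orm2 had 20.8 ± 7.2 TPM in heterozygous and 96.5 ± 71.2 TPM in wild-type livers. Orm3 was the least abundant, with 1.02 ± 0.497 TPM in heterozygous and 13.6 ± 9.24 TPM in wild-type livers. The 3 Orm genes are alike in sequence, so the division of reads among them is uncertain. Saa1, serum amyloid A, had 25.1, 47.8 and 38.8 CPM in heterozygous livers and 25.5, 141 and 390 CPM in wild-type livers, and its log2 difference of −2.32 was −1.16 without wild-type animal 3. Lcn2, which encodes the siderophore-binding lipocalin 2, had 2.38, 8.94 and 12.1 CPM in heterozygous livers and 4.26, 40.6 and 61.9 CPM in wild-type livers. Mt2, a metallothionein that binds zinc, showed the same wild-type pair high, with 1.34, 2.71 and 17.5 CPM in heterozygous livers and 3.5, 48.1 and 154 CPM in wild-type livers. Its log2 difference of −3.24 was −5.06 without heterozygous animal 3 and −1.83 without wild-type animal 3. Among abundant members the contrast was smaller: C3, the central complement protein, had 7547, 7207 and 7201 CPM in heterozygous livers and 7724, 10246 and 11776 CPM in wild-type livers. The signalling genes of the response had a median of −0.12, with 15 of 21 lower, but without heterozygous animal 1 the median was 0.01 with 10 lower, and with library size alone it was −0.04.

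The start regions of Orm2 and Orm3 are shown because they had the smallest p of the acute phase list. Capitals mark TTGCNCAA, a core of C/EBP-type sites with any base at N, searched on both strands and present in 2.82% of all RefSeq start windows. It begins at base −120 in Orm2 and at base −121 in Orm3, and the windows are equal at 247 of 275 aligned bases (89.8%). Saa1 and Saa2 hold 1 match each, beginning at bases −182 and −183.
Orm2, chr4:63362199-63362478, plus strand: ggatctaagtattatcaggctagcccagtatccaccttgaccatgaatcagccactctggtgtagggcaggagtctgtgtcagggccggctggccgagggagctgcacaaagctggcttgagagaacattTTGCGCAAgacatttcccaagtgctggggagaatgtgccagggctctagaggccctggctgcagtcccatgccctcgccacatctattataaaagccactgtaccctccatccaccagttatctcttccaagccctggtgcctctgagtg
Orm3, chr4:63355908-63356187, plus strand: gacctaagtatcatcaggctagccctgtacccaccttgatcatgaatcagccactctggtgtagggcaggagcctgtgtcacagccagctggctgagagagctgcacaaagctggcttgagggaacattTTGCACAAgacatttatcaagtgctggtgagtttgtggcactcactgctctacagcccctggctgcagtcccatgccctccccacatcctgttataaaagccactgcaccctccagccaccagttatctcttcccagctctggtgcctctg

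**Figure D4:**
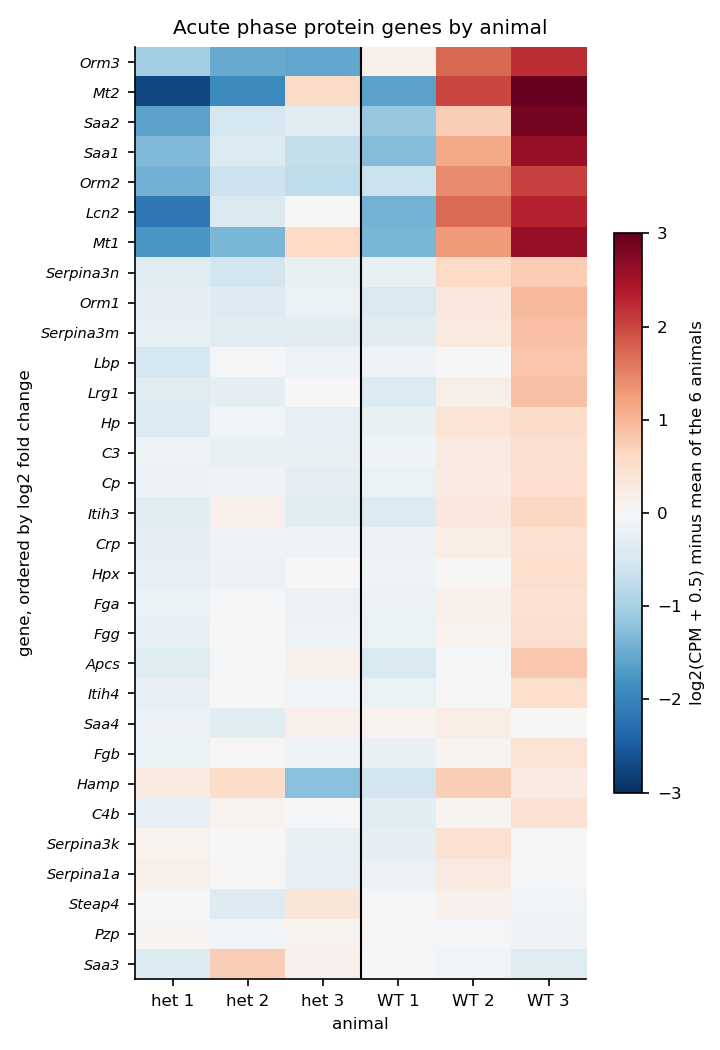
Heat map of 31 acute phase genes in the 6 animals, heterozygous on the left and wild type on the right, as log2(CPM + 0.5) minus the mean of the 6. Wild-type animals 2 and 3 are above the mean for 25 and 26 genes; wild-type animal 1 is above it for 2, like the heterozygous animals with 4, 6 and 5.

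Genes of amino acid catabolism were mostly on the lower side. Of 32 genes of the urea cycle and amino acid breakdown 31 were lower and 1 higher (median log2 difference −0.25), 6 were lower at an unadjusted p under 0.05, and 10 did not overlap, beside 2.52% and 5.76% of all genes. With library size alone in place of TMM the median was −0.17 and 1 gene was lower at that threshold, and in DESeq2 8 were. Without heterozygous animals 1, 2 and 3 there were 2, 4 and 3 such genes, and without wild-type animals 1, 2 and 3 there were 6, 1 and 2. Over all genes the number lower was 143 of 12427 with library size alone. Without wild-type animals 1, 2 and 3 it was 507 of 12575, 192 of 12600 and 137 of 12603. Got1, the cytosolic aspartate aminotransferase, had 189, 194 and 241 CPM in heterozygous livers and 270, 427 and 422 CPM in wild-type livers. Cth, which makes cysteine from cystathionine, had 271, 377 and 307 CPM in heterozygous livers and 494, 465 and 442 CPM in wild-type livers. Aass, the first enzyme of lysine breakdown, was uniform within groups, with 280, 278 and 276 CPM in heterozygous livers and 336, 371 and 348 CPM in wild-type livers. For these 3 genes all heterozygous values were below all wild-type ones, with log2 differences of −0.84, −0.55 and −0.34. Of 19 periportal genes 17 were lower (median −0.23). Of 23 pericentral genes 15 were lower (median −0.09), and with library size alone 12 were (median −0.02).

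Among drug-metabolising enzymes, 30 of 40 cytochrome P450 and flavin monooxygenase genes were lower and 10 higher. Their median log2 difference of −0.23 was −0.12 without heterozygous animal 2, −0.14 without wild-type animal 1 and −0.15 with library size alone. Cyp2c38, a P450 of the arachidonate-metabolising family, had 17.7, 19 and 24 CPM in heterozygous livers and 46.4, 31 and 62.4 CPM in wild-type livers. Fmo5, a flavin monooxygenase, had 680, 507 and 654 CPM in heterozygous livers and 869, 888 and 890 CPM in wild-type livers. Both were lower in every heterozygous animal, by −1.20 and −0.52 on the log2 scale. Cyp2u1, a fatty acid hydroxylase, was an exception with 17, 18.6 and 13.6 CPM in heterozygous livers and 11.8, 11.1 and 8.13 CPM in wild-type livers, and the homozygous males were on the far side of the wild types at 2.96, 4.61 and 4.98 CPM. Among 45 conjugation enzymes 28 were lower (median −0.09), but with library size alone 22 were higher and 23 lower (median −0.01). Sult1a1, which sulphates phenols, had 192, 200 and 209 CPM in heterozygous livers and 229, 317 and 366 CPM in wild-type livers, and Gsta2, a glutathione transferase, had 12.8, 9.18 and 13.4 CPM in heterozygous and 25, 20.8 and 28.4 CPM in wild-type livers.

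Lipid lists had medians near 0, apart from sterol synthesis. The median log2 difference was 0.04 over 24 fatty acid synthesis genes, 0.01 over 44 PPARA targets and oxidation genes and −0.05 over 28 bile acid genes, each with the other sign under at least 1 alternative. Of 26 cholesterol synthesis and uptake genes 24 were higher, with a median of 0.27, but 0 were under an unadjusted p of 0.05 in edgeR's quasi-likelihood test and the median was −0.02 without wild-type animal 1. In that list Sqle, squalene epoxidase, had 85.1, 148 and 69.3 CPM in heterozygous livers and 19.1, 157 and 117 CPM in wild-type livers, where animal 1 was the low one. G0s2, an inhibitor of the lipase ATGL, had 40.3, 41.9 and 38 CPM in heterozygous livers and 19.7, 9.85 and 19.4 CPM in wild-type livers, with a clear gap (log2 difference 1.29). Fgf21, a fasting and stress hormone of the liver, had 0.671, 0.412 and 1.46 CPM in heterozygous livers and 0.117, 0.0639 and 0.183 CPM in wild-type livers, all values near the detection limit. Depp1, a FOXO target linked to autophagy, had 97.8, 72.5 and 83.1 CPM in heterozygous livers and 44.5, 64.8 and 42 CPM in wild-type livers, and the homozygous males stood at 113, 122 and 175 CPM. Ppargc1a, the coactivator PGC-1α of mitochondrial biogenesis and gluconeogenesis, was lower, with 4.64, 8.65 and 7.52 CPM in heterozygous livers and 12.8, 11.8 and 9.53 CPM in wild-type livers.

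The genes nearest to the function of HtrA2 showed small differences. In the list of IAP and mitochondrial apoptosis genes 17 of 33 were higher and 16 lower, and the median log2 difference was 0.02. Xiap, the IAP that HtrA2 binds, had 102, 100 and 93.4 CPM in heterozygous livers and 86.4, 94.9 and 95 CPM in wild-type livers. Diablo, which encodes Smac, another IAP-binding protein of the intermembrane space, had 18.6, 17.1 and 18 CPM in heterozygous and 19.8, 17.4 and 17 CPM in wild-type livers. Xiap and Diablo overlapped between the genotypes, with log2 differences of 0.10 (SE 0.12) and −0.01 (SE 0.11). In the whole list 3 genes were higher and 3 lower without overlap, beside 4.57% and 5.76% of all genes. At an unadjusted p under 0.05 in edgeR's quasi-likelihood test 1 was higher and 1 lower, beside 1.67% and 2.52% of all genes. Those last were Bbc3 and Bcl2l1, BCL2-family genes of opposite action. Bcl2l1, whose main product BCL-XL protects the outer membrane, had 26.9, 31.8 and 29.3 CPM in heterozygous livers and 35.1, 45.3 and 51.9 CPM in wild-type livers. Bbc3, which encodes the pro-apoptotic protein PUMA, had 8.24, 15.7 and 8.53 CPM in heterozygous livers and 6.02, 4.35 and 7.52 CPM in wild-type livers. Neither overlapped between groups, with log2 differences of −0.59 (SE 0.14) for Bcl2l1 and 0.86 (SE 0.34) for Bbc3, which was 0.49 without heterozygous animal 2. Both had an adjusted p of 0.972 in edgeR's quasi-likelihood test.

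Mitochondrial chaperones and proteases had a median log2 difference of −0.04 over 28 genes (0.04 with library size alone), none of them under an unadjusted p of 0.05 in edgeR's quasi-likelihood test. Hspd1, the matrix chaperonin, had 429, 363 and 443 CPM in heterozygous and 441, 447 and 428 CPM in wild-type livers, and Clpp, a matrix protease, had 45.5, 40.2 and 43.5 CPM in heterozygous and 44.1, 44.8 and 45 CPM in wild-type livers. For the respiratory chain the direction depended on scaling. In the TMM fit 11 of 37 complex I genes were higher and 26 lower (median −0.04), but with library size alone 22 were higher and 15 lower. Of 40 genes of complexes II to V 4 were higher and 36 lower (median −0.07), but 25 were higher and 15 lower with library size alone, and 12 higher and 28 lower without heterozygous animal 2 (median −0.01). None was under that threshold in the TMM fit. No gene encoded by mitochondrial DNA was analysed here. Autophagy and mitophagy genes had a median of −0.09, with 29 of 35 lower, but 20 were lower with library size alone, and the median was −0.03 without heterozygous animal 2. Of 79 cytosolic ribosomal protein genes 55 were higher (median 0.04), but 78 were with library size alone, 36 without heterozygous animal 1 and 35 without wild-type animal 1. The ATF4 stress response, which mitochondrial damage can raise, had 11 genes higher and 19 lower (median −0.09, and −0.01 with library size alone).

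Protein folding genes outside mitochondria were examined as further lists. Of 25 genes of the endoplasmic reticulum unfolded protein response 21 were lower (median log2 difference −0.25), 8 of them with no overlap. Of 22 heat shock genes 18 were lower (median −0.22), 5 with no overlap, both beside 5.76% of all genes. At an unadjusted p under 0.05 in edgeR's quasi-likelihood test 2 and 3 were lower, beside 2.52% of all genes. These counts were 0 and 2 with library size alone, 6 and 3 in DESeq2 and 6 and 4 in the 6 compared males alone. Without heterozygous animals 1, 2 and 3 they were 2 and 6, 1 and 1, and 0 and 0. Without wild-type animals 1, 2 and 3 they were 4 and 4, 0 and 1, and 0 and 1. Over all genes 143 of 12427 were lower at that p with library size alone, and 507 of 12575 without wild-type animal 1. In heterozygous animal 1, 15 and 13 genes of the unfolded protein and heat shock lists lay over the mean of the 6 livers, near the 15 and 15 in wild-type animal 1. In heterozygous animals 2 and 3, 0 and 3 unfolded protein and 3 and 4 heat shock genes did. Hsp90aa1, the inducible cytosolic HSP90, had 131, 140 and 120 CPM in heterozygous livers and 152, 195 and 155 CPM in wild-type livers. Dnajb1, an HSP70 co-chaperone, had 21.8, 13.8 and 17.3 CPM in heterozygous and 25.2, 23.3 and 27.2 CPM in wild-type livers. Dnajc3, a co-chaperone of the endoplasmic reticulum, had 173, 147 and 147 CPM in heterozygous livers and 173, 222 and 222 CPM in wild-type livers, with wild-type animal 1 and heterozygous animal 1 almost level. Of 23 immediate early genes 4 were lower at an unadjusted p under 0.05, beside 2.52% of all genes, and the median was −0.16. That count was 4 in DESeq2, 2 with library size alone or the replicate block and 1 on FPKM. It was 2, 2 and 2 without heterozygous animals 1, 2 and 3, and 1, 2 and 3 without wild-type animals 1, 2 and 3. Over all genes the number lower was 143 of 12427 with library size alone and 253 of 12427 with the replicate block. Without wild-type animals 1, 2 and 3 it was 507 of 12575, 192 of 12600 and 137 of 12603. Nr4a1, an orphan nuclear receptor induced within minutes of a stimulus, overlapped at 0.915, 2.82 and 5.1 CPM in heterozygous livers and 22.7, 3.96 and 14.1 CPM in wild-type livers.

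Markers of 4 other cell classes of the liver had positive medians, but none separated the genotypes. Of 18 sinusoidal endothelial markers 18 were higher (median log2 difference 0.29), of 18 Kupffer cell and macrophage markers 17 (median 0.29), of 20 stellate cell and matrix markers 19 (median 0.56), and of 13 lymphocyte markers 13 (median 0.71). At an unadjusted p under 0.05 in edgeR's quasi-likelihood test 5 stellate markers, 1 lymphocyte marker and no Kupffer or sinusoidal marker were higher, beside 1.67% of all genes. In heterozygous animals 1, 2 and 3, 1, 15 and 18 of the 18 Kupffer markers lay over the mean of the 6 livers, and in wild-type animals 1, 2 and 3, 17, 0 and 1 did. The Kupffer list summed to 428, 682 and 842 CPM in heterozygous livers and 832, 437 and 384 CPM in wild-type livers. The stellate list summed to 532, 780 and 736 CPM in heterozygous livers and 691, 364 and 267 CPM in wild-type livers. Ngfr, a neurotrophin receptor of stellate cells, was at 2.69, 4.71 and 5.16 CPM in heterozygous livers and 2.45, 2.11 and 1.34 CPM in wild-type livers, without overlap. Pdgfra, the receptor of platelet-derived growth factor on mesenchymal cells, had 4.64, 7.06 and 4.99 CPM in heterozygous livers and 4.44, 2.3 and 3.12 CPM in wild-type livers. Ngfr and Pdgfra were the only 2 of the 20 stellate markers higher without overlap, beside 4.57% of all genes. The more abundant Dcn overlapped, at 94.3, 165 and 148 CPM in heterozygous livers and 125, 65.1 and 53.6 CPM in wild-type livers. Bgn, Ecm1 and Colec11 overlapped as well, with wild-type animal 1 the highest of the wild types. Without wild-type animal 1, 14 Kupffer, 17 sinusoidal and 13 stellate markers were higher at that p, beside 780 of 12575 genes (6.2%). No stellate marker was higher at it without heterozygous animal 2, wild-type animal 2 or wild-type animal 3. Over all genes 114 of 12569, 143 of 12600 and 122 of 12603 were higher in these fits. Without heterozygous animal 3 there were 2 stellate markers, beside 243 of 12576 genes. Without wild-type animal 1 the medians were 0.84 for Kupffer, 0.79 for sinusoidal and 1.06 for stellate markers; without wild-type animal 3 the Kupffer median was 0.02. In bulk tissue, fewer cells of a type and less RNA per cell cannot be told apart.

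Values of the hepatocyte and remaining marker lists differed between animals as well. The hepatocyte markers summed to 87370, 84344 and 108001 CPM in heterozygous livers and 108553, 120635 and 105797 CPM in wild-type livers, and 8 of 10 were lower (median log2 difference −0.26). Haemoglobin ranged widely between animals. Hbb-bs, a beta-globin gene of red cells, had 34.1, 153 and 644 CPM in heterozygous livers and 695, 17.1 and 57.3 CPM in wild-type livers, highest in heterozygous animal 3 and wild-type animal 1. Neutrophil markers were sparse, with 3 of 4 lower (median −0.30), at 2.93, 6.65 and 7.8 CPM summed in heterozygous livers and 8, 8.31 and 6.11 CPM in wild-type livers. Cholangiocyte markers, 6 of 9 of them lower (median −0.20), summed to 476, 547 and 439 CPM in heterozygous and 474, 494 and 495 CPM in wild-type livers. Markers of adipose tissue, pancreas and muscle summed to 26.9, 32.2 and 23.6 CPM in heterozygous and 24.6, 20.8 and 13.7 CPM in wild-type livers, and 6 of 20 stood at 0 in all 6, among them Adipoq, Lep and Plin1. The part of blood content and of the mix of liver cells in the acute phase, amino acid and P450 values was not tested.

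**Figure D5:**
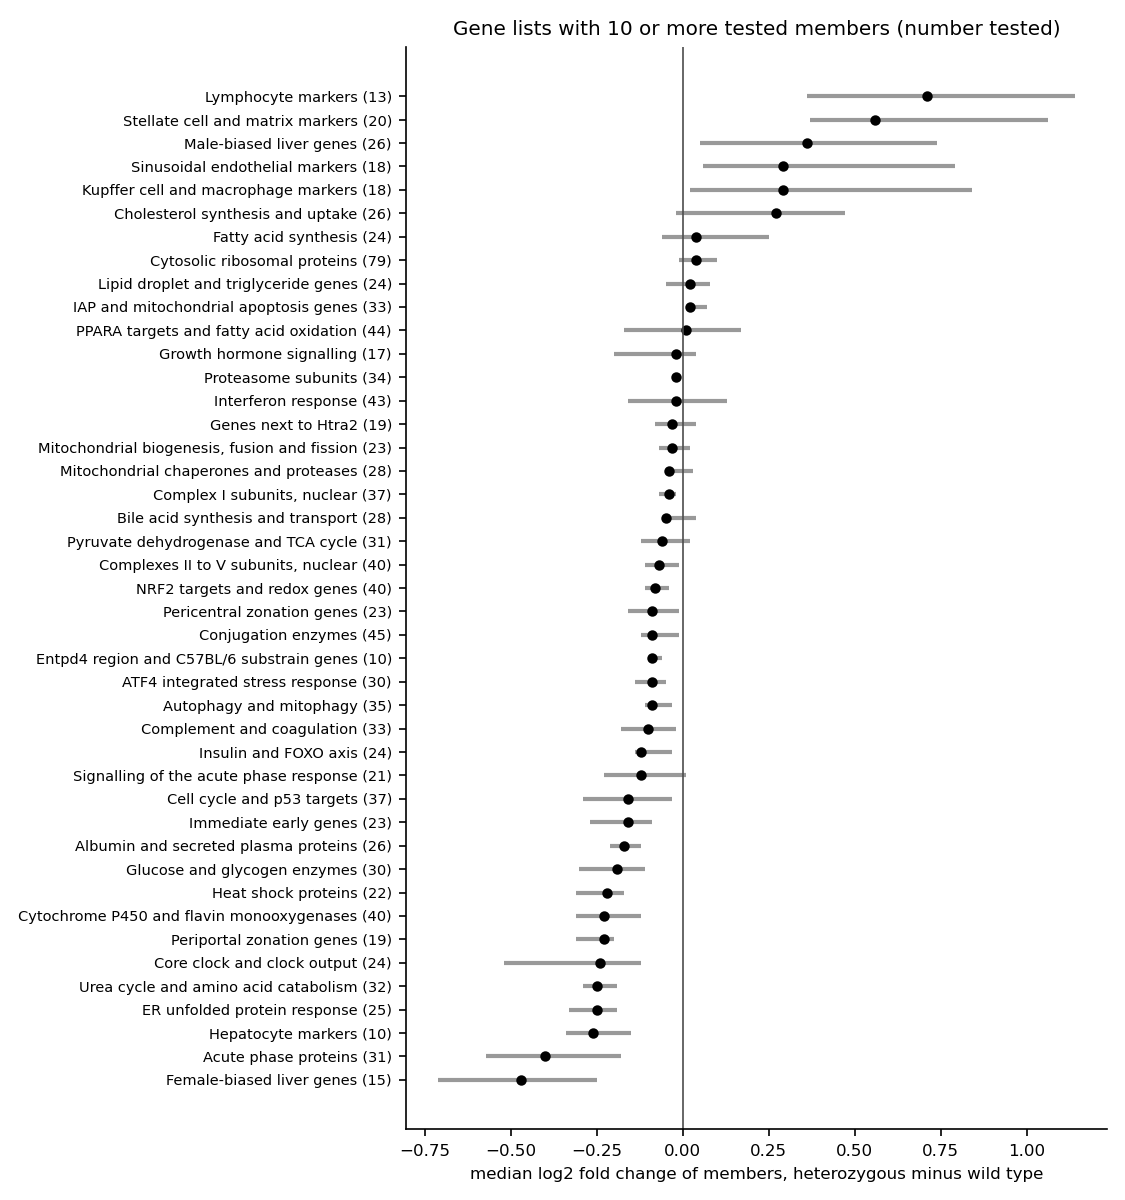
Median log2 difference, heterozygous minus wild type, of the gene lists with at least 10 tested genes; points are medians and grey lines the range with each animal left out in turn. Stellate and lymphocyte markers lie highest, at 0.56 and 0.71, and female-biased and acute phase genes lowest, at −0.47 and −0.40.

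Genes of the cell cycle and p53 response gave 3 higher and 5 lower at an unadjusted p under 0.05 among 37, beside 1.67% and 2.52% of all genes. Their median log2 difference of −0.16 was −0.03 without heterozygous animal 1 or wild-type animal 1 and −0.29 without heterozygous animal 3. Without heterozygous animal 1 there were 1 higher and 2 lower, beside 286 and 308 of all 12615 genes. Without wild-type animal 2 there were 0 higher and 4 lower, beside 143 and 192 of 12600. Ccne1, cyclin E1, which drives entry into S phase, had 1.34, 0.235 and 0.561 CPM in heterozygous livers and 1.69, 3.58 and 2.81 CPM in wild-type livers. Mcm4, a subunit of the replicative helicase, had 1.04, 2.12 and 2.13 CPM in heterozygous and 3.74, 3.96 and 3.67 CPM in wild-type livers. Both had no overlap, at levels of few CPM. Plk3, a stress-induced kinase, had 14.5, 12.1 and 41.1 CPM in heterozygous livers and 97, 57.5 and 65.3 CPM in wild-type livers, also with no overlap (log2 difference −1.70). Interferon response genes had a median of −0.02 over 43 genes (0.05 with library size alone), with Irf1, an interferon-induced transcription factor, at 43.6, 50.5 and 36.5 CPM in heterozygous livers and 31.5, 23.1 and 38.1 CPM in wild-type livers.

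The genes on either side of Htra2 on chromosome 6 were examined as a list. Of 19 tested neighbours 9 were higher and 10 lower, and the median log2 difference was −0.03. At an unadjusted p under 0.05 in edgeR's quasi-likelihood test 1, Tet3, was lower, beside 2.52% of all genes. Tet3, a DNA demethylase, had 25.7, 33.2 and 30.5 CPM in heterozygous livers and 32.2, 39 and 44.3 CPM in wild-type livers, with a slight overlap. The others were all over that p.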

How the data were processed

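Liver poly(A) RNA of 10 mice was sequenced, and HISAT, Bowtie2 and GRCm38.p6 are named in the submitters' processing notes; the sources used here give no version, counting program or strand setting. The authors deposited expected counts, FPKM and TPM for 77712 transcripts. The deposited expected counts are estimates of reads per transcript made by the authors without normalisation; the authors scaled FPKM to length and library total, and TPM to a fixed sum per sample. Here all were summed over 19271 genes, of which 19214 matched RefSeq names, and counts were rounded (94.5% of sums above 0 lay within 0.05 of a whole number).

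The test was edgeR 4.0.16 (quasi-likelihood, TMM, filterByExpr, Benjamini-Hochberg) in R 4.3.3 on 9 males, with 6 residual degrees of freedom and the contrast heterozygous minus wild type. Libraries held 16240441 to 17264289 counts, so genes of few CPM rest on few reads and vary most. Limma 3.58.1 (also on log2 FPKM with pseudocounts of 1 and 0.1), DESeq2 1.42.0, other scalings and filters, and leaving out each of the 6 animals were tried. The procedure was tested on simulated data.

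Members and the 50 gene lists were chosen with earlier results of these data known. The text names Htra2; in each direction the 12 lowest p-values among genes of at least 1 CPM without overlap; the 6 per direction with the largest fold change under the same conditions and p under 0.05; up to 3 genes per list by p, and by abundance for acute phase, cell type and clock lists; and checks of copies, clock, substrain and sex. Some were left out for length. Promoter windows came from RefSeq on GRCm38.p6.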

Additional observations from a re-analysis of the deposited data

How the results depend on the processing

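Over the 850 values of the 50 list medians under 17 alternatives, 780 moved by less than the spread between animals, and 70 moved by more. That spread was each list's own, so lists that varied widely between animals could move far without being counted. The Kupffer median went from 0.29 to 0.84 without wild-type animal 1, within its spread of 0.64. In 23 lists, 69 values had the other sign than in the TMM fit. Among them were the medians of complex I, mitochondrial chaperones, bile acid, cholesterol and interferon genes. Of 1289 values of 77 named genes, 7 passed the threshold (the DESeq2 calls) and 0 changed sign. Apart from Htra2, these genes were chosen for a small unadjusted p in the TMM fit, many also for groups without overlap. Their stable sign therefore largely follows from the choice. None of the 140 homozygous minus heterozygous values changed its call. DESeq2 called 7 genes where edgeR called 0. With each animal left out, genes at an unadjusted p under 0.05 in edgeR's quasi-likelihood test numbered 259 to 1287, the extremes without wild-type animals 3 and 1. Library size alone gave 388 higher and 143 lower at that p, log2(FPKM + 1) 336 and 116 (74.3% higher) and log2(FPKM + 0.1) 338 and 115 (74.6% higher), against 208 and 313 in the TMM fit; the median of all genes was 0.09, 0.06 and 0.07 under these scalings and 0.01 in the TMM fit. The cause was not tested.

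Medians that moved with library size alone were albumin and plasma proteins −0.09, urea cycle −0.17, conjugation −0.01, bile acid 0.03, insulin and FOXO −0.04, ATF4 −0.01, mitochondrial chaperones 0.04, IAP 0.09, complex I 0.04, complexes II to V 0.01, NRF2 0.00, proteasome 0.06, genes next to Htra2 0.05, the Entpd4 region −0.01, hepatocyte −0.18 and Y-linked 0.15. On log2(FPKM + 1) they were albumin −0.10, urea cycle −0.17, conjugation −0.02, bile acid 0.03, insulin −0.05, ATF4 0.01, NRF2 0.01, proteasome 0.05, next to Htra2 0.04, Entpd4 region −0.04, hepatocyte −0.18, lymphocyte 0.35 and cholangiocyte 0.05. On log2(FPKM + 0.1) the values were albumin −0.10, urea cycle −0.17, conjugation −0.02, bile acid 0.03, insulin −0.06, ATF4 0.01, NRF2 0.01, proteasome 0.05, next to Htra2 0.04, Entpd4 region −0.04, hepatocyte −0.18, cholangiocyte 0.05, adipose, pancreas and muscle 0.28 and Y-linked 0.17. A minimum of 1 CPM in 3 samples gave 0.40 for the adipose, pancreas and muscle list. With each animal left out, medians ran from −0.21 to −0.12 for albumin, −0.29 to −0.19 for the urea cycle, −0.12 to −0.01 for conjugation, −0.20 to 0.04 for growth hormone, −0.52 to −0.12 for the clock, −0.06 to 0.04 for bile acid, −0.14 to −0.03 for insulin, −0.14 to −0.05 for ATF4, −0.02 to −0.01 for the proteasome, −0.08 to 0.04 next to Htra2, −0.34 to −0.15 for hepatocyte, 0.36 to 1.14 for lymphocyte, −0.20 to −0.06 for cholangiocyte, −1.30 to 2.63 for erythroid and −0.10 to 0.37 for adipose, pancreas and muscle genes.

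The fit with the replicate block called 0 genes and gave 416 at an unadjusted p under 0.05 in edgeR's quasi-likelihood test. The deviations of same-numbered animals from their group means correlated at −0.438, −0.0423 and −0.218. Deviations within so small a group are tied to each other and also carry the differences between animals. These values therefore cannot show whether same-numbered animals shared a litter, day or extraction, and this was not tested.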
